A study of Mus musculus with 49 samples.

Results

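The 5 genes described here are the receptors Adora2a and Adora2b and the enzymes Entpd1, Nt5e and Ada, which set how much extracellular adenosine there is and how cells sense it. They were chosen by symbol, and each matched 1 of the 39179 gene rows of the count table. Adora2a was known from an earlier analysis of these counts to be higher in the combination than under anti-PD-1. Values of the 5 genes in that contrast are therefore given as a description, without a p-value. Whether one of them was called there is given only as background. RNA was measured in 49 CT26 tumours, a mouse colon carcinoma line grown in BALB/c mice, by QuantSeq 3′ sequencing, which reads 1 tag near the end of each transcript. There were 9 tumours under vehicle, 7 under celecoxib (a COX-2 inhibitor, 30 mg/kg daily), 17 under an antibody to the checkpoint receptor PD-1 (2 doses of 200 µg) and 16 under both agents (the combination), with treatment begun on day 7 after tumour injection and lasting 7 days. The labels call each tumour R or NR without defining the letters. All vehicle and celecoxib tumours are NR, 4 anti-PD-1 tumours are R and 13 NR, and 12 combination tumours are R and 4 NR. The sampling day is given as day 7 in the tissue label and as day 4 in the extraction protocol, and the labels do not say whether each tumour came from a separate animal, so p-values measure the spread between these tumours. Replicate numbers only name a tumour.

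Extracellular ATP released by stressed and dying cells is cut to AMP by CD39, the product of Entpd1, and AMP is cut to adenosine by CD73, the product of Nt5e. Adenosine deaminase, the product of Ada, turns adenosine into inosine, and the receptors encoded by Adora2a and Adora2b answer adenosine by raising cyclic AMP. In tumours this pathway is known for restraining T cells, mainly through Adora2a, while Adora2b binds adenosine more weakly and is known from myeloid and stromal cells.

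Levels are in CPM, the reads of a gene per fixed total of reads in its library after scaling for library composition, and differences are log2 fold changes with their standard error (SE). A gene was called where the Benjamini-Hochberg adjusted p of edgeR's quasi-likelihood test, taken over all genes tested, was under 0.05. Total counts ran from 4251251 to 13671294 per library, with a median of 7670623. All 5 genes had reads in all 49 libraries and passed the filter on low counts. In 15 libraries (2 vehicle, 2 celecoxib, 5 anti-PD-1, 6 combination) a muscle, skin or adipocyte gene list was high, and values without them are given where they differ. Of the colon epithelium markers, Krt20 averaged 52.1 CPM and Krt18 14.5 CPM, Vil1 had reads in 6 libraries and Cdx2 in 1.

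Entpd1 lies on chromosome 19 (40612366 to 40741602, plus strand, GRCm38), and 2 pseudogenes and a sense intronic transcript lie within it on the same strand. Ada lies on chromosome 2 (163726584 to 163750239, minus strand), Nt5e on chromosome 9 (88327197 to 88372092, plus strand), Adora2b on chromosome 11 (62248984 to 62266453, plus strand) and Adora2a on chromosome 10 (75316877 to 75334784, plus strand). The stretches of 250 bases before the RefSeq start sites of Entpd1 and Ada are printed because the levels of these genes rose and fell together from tumour to tumour, and that of Nt5e because its level did so with neither. RefSeq promoters of build GRCm38.p6 were matched for 4 of the 5 genes. Capitals mark the GC box GGGCGG (read as CCGCCC on the other strand) and the ETS-type core AGGAAG, which reads CTTCCT on the other strand, and neighbouring matches may overlap.
Entpd1, first start site, chr19:40612116-40612365, plus strand: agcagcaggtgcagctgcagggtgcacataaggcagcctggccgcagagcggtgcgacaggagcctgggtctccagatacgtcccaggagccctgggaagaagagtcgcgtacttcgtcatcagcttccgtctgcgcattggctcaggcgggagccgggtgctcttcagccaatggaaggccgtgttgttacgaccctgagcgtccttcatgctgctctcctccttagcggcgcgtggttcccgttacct
Entpd1, other start site, chr19:40659520-40659769, plus strand: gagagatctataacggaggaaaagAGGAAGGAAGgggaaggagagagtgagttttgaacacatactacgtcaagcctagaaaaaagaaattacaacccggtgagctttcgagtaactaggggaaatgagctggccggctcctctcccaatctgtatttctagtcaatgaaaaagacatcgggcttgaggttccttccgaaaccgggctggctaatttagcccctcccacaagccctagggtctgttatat
Ada, chr2:163750240-163750489, minus strand: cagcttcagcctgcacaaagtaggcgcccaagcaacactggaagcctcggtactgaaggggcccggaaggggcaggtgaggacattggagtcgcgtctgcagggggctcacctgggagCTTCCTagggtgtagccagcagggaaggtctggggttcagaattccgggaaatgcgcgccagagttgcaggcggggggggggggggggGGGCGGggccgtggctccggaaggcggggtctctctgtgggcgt
Nt5e, chr9:88327359-88327608, plus strand: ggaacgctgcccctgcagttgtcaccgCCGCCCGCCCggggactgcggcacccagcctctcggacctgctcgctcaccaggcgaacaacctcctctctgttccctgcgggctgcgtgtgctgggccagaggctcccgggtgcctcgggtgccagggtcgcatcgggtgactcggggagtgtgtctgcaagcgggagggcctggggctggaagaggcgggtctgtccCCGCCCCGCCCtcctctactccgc
The first Entpd1 window held neither motif and the other held 2 ETS-type cores. The Ada window held 1 GC box and 1 ETS-type core, and the Nt5e window held 4 GC boxes and no ETS-type core. The Adora2b window held 6 GC boxes. A GC box was present in 32.7% and an ETS-type core in 29.5% of 32851 promoter windows of this length. These matches describe letters only, and 3′ tags do not show which start site was used.

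Entpd1, whose product makes AMP from ATP, ranged from 5.87 to 43.4 CPM under vehicle (median 21, n = 9) and from 11.2 to 34.2 CPM under celecoxib (median 23.1, n = 7). It ranged from 5.08 to 61.9 CPM under anti-PD-1 (median 20.8, n = 17) and from 6.34 to 68.9 CPM in the combination (median 26.8, n = 16). The 4 ranges overlapped, and each treatment held tumours with little and with much Entpd1. The 4 anti-PD-1 R tumours had 5.08, 20.8, 22.2 and 43.7 CPM and the 4 combination NR tumours 11.3, 15.0, 19.7 and 30.0 CPM, while the 12 combination R tumours ran from 6.34 to 68.9 CPM with a median of 28.4. None of the 5 genes was called against vehicle by edgeR, DESeq2 or limma-voom in the combination, where Adora2a was the only one with an unadjusted p under 0.05 in each of the 3 tools. That comparison had 15.4% of all genes at an unadjusted p under 0.05 in edgeR. The combination differed from vehicle in Entpd1 by a log2 fold change of 0.58 (SE 0.34, adjusted p = 0.401), and 0.0729% of the 13726 genes tested were called in that comparison. Anti-PD-1 differed from vehicle in it by 0.27 (SE 0.33, adjusted p = 0.9998), where 0.0874% of genes were called.

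Nt5e, which completes the step to adenosine, had medians of 3.36 CPM under vehicle, 3.38 under celecoxib, 3.85 under anti-PD-1 and 3.21 in the combination. Its lowest value, 0.359 CPM from 2 reads, was in an anti-PD-1 NR tumour, and its highest, 5.98 CPM, was in the same group. The treatments did not separate it, with log2 fold changes from vehicle of 0.09 (SE 0.32) for celecoxib, 0.19 (SE 0.26) for anti-PD-1 and 0.00 (SE 0.26) for the combination. The 95% interval of the last ran from -0.52 to 0.52. Ada, which removes adenosine, ranged from 4.40 to 16.2 CPM under vehicle (median 9.74), from 6.08 to 17.3 under celecoxib (median 7.39), from 3.71 to 23.8 under anti-PD-1 (median 7.41) and from 4.96 to 26.4 in the combination (median 8.20). Its ranges overlapped as well, and the 4 combination NR tumours, at 6.06, 6.14, 8.54 and 10.7 CPM, lay within that of the combination R tumours. The combination differed from vehicle in Ada by 0.21 (SE 0.31, adjusted p = 0.757).

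Adora2a, the receptor best known for restraining T cells, was the one with a long upper tail in the combination. Its level ranged from 0.443 to 2.21 CPM under vehicle (median 1.39), from 0.342 to 3.63 CPM under celecoxib (median 2.09) and from 0.382 to 2.85 CPM under anti-PD-1 (median 1.14). In the combination it ranged from 0.535 to 12.3 CPM (median 2.12). The 5 highest combination tumours had 6.12, 6.75, 7.07, 7.48 and 12.3 CPM, and each lay above every tumour of the other treatments. All 5 were R, as were 12 of all 16 combination tumours. The other 7 combination R tumours had 0.535, 0.577, 1.06, 1.23, 1.43, 1.89 and 3.15 CPM, within the range of the remaining groups. The 4 combination NR tumours had 1.48, 1.55, 2.34 and 3.11 CPM. Counts behind these values were low, from 2 to 70 reads per library.

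**Figure D1:**
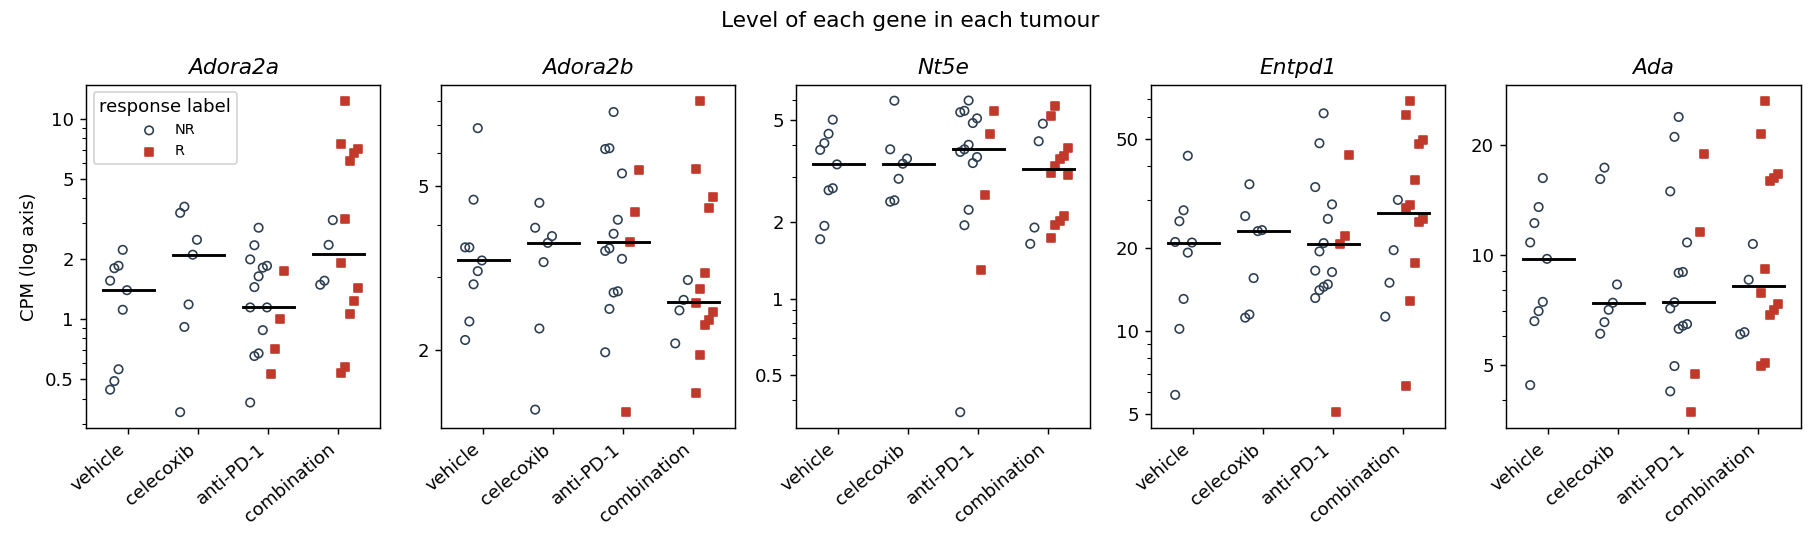
Level of each gene in each of 49 tumours, in CPM on a log axis, by treatment, with open circles for NR, filled squares for R and a bar at the median of the treatment. Adora2a of 5 of the 12 combination R tumours lies at 6.12 CPM or above, while the other genes overlap across all treatments.

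The mean level of Adora2a was 3.63 ± 3.35 CPM in the combination (SD, n = 16), 1.34 ± 0.693 under anti-PD-1 (SD, n = 17), 1.26 ± 0.651 under vehicle (SD, n = 9) and 2.00 ± 1.25 under celecoxib (SD, n = 7). The comparison with vehicle uses the same 16 combination tumours whose high Adora2a was already known, so its p-values are not independent of the choice of the gene. Against vehicle the combination differed by a log2 fold change of 1.50 (SE 0.44), which did not pass the adjusted threshold (adjusted p = 0.147). Without the 15 libraries that held other tissue it was 1.95 (adjusted p = 0.0337), and without combination replicate 15 alone it was 1.59 (adjusted p = 0.0499). The first was the only call in 7 other settings, where the adjusted p reached 0.335. The second was the only call in 25 fits that each left out 1 library, where it reached 0.282. Over all genes the number called in this comparison was 10 in the main fit. It ran from 2 to 327 over other settings and from 2 to 157 leaving out 1 library. Against celecoxib the combination differed by 0.86 (SE 0.46, adjusted p = 0.918), where 0.0364% of genes were called. Celecoxib alone differed from vehicle by 0.64 (SE 0.51, adjusted p = 0.9999), where 0 genes were called by edgeR (314 at an unadjusted p under 0.05), 7 by DESeq2 and 0 by limma-voom. These comparisons share tumours and are not independent of each other. The effect of celecoxib with antibody minus that without was 0.81 (SE 0.62, adjusted p = 0.9996).

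In the contrast that drew attention to it, the combination against anti-PD-1, Adora2a differed by 1.45 (SE 0.35) on the log2 scale. It was among the 0.335% of genes called higher there, a figure given only as background since this contrast chose the gene, beside 0.503% in either direction. The call was lost in 5 of 8 other settings and in 17 of 33 fits that each left out 1 library, with log2 fold changes from 1.20 to 1.55 over those 33 fits. The libraries whose removal ended the call were anti-PD-1 replicates 3, 4, 5, 7, 8, 9, 10, 13, 14, 15 and 16 and combination replicates 1, 4, 9, 11, 14 and 16. The lowest value, 1.20, came without combination replicate 16, the tumour with 12.3 CPM. Over all genes the number called ran from 11 to 297 over the 8 other settings and from 13 to 449 over the 33 fits. In the same contrast Entpd1 differed by 0.31 (SE 0.28), Ada by 0.16 (SE 0.25), Nt5e by -0.19 (SE 0.22) and Adora2b by -0.29 (SE 0.21). Among R tumours alone the Adora2a difference was 2.01 (SE 0.64), with 0% of all genes called, and among NR tumours it was 0.56 (SE 0.55), with 0.0281% called.

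Adora2b, the receptor of lower affinity, did not share the tail of Adora2a. Its medians were 3.29 CPM under vehicle, 3.63 under celecoxib, 3.65 under anti-PD-1 and 2.62 in the combination, with an overall range of 1.41 to 8.04 CPM. The log2 fold change from vehicle was -0.12 (SE 0.25, adjusted p = 0.846) in the combination and 0.18 (SE 0.25, adjusted p = 0.9998) under anti-PD-1. Its highest value was in a combination R tumour that had 1.23 CPM of Adora2a.

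**Figure D2:**
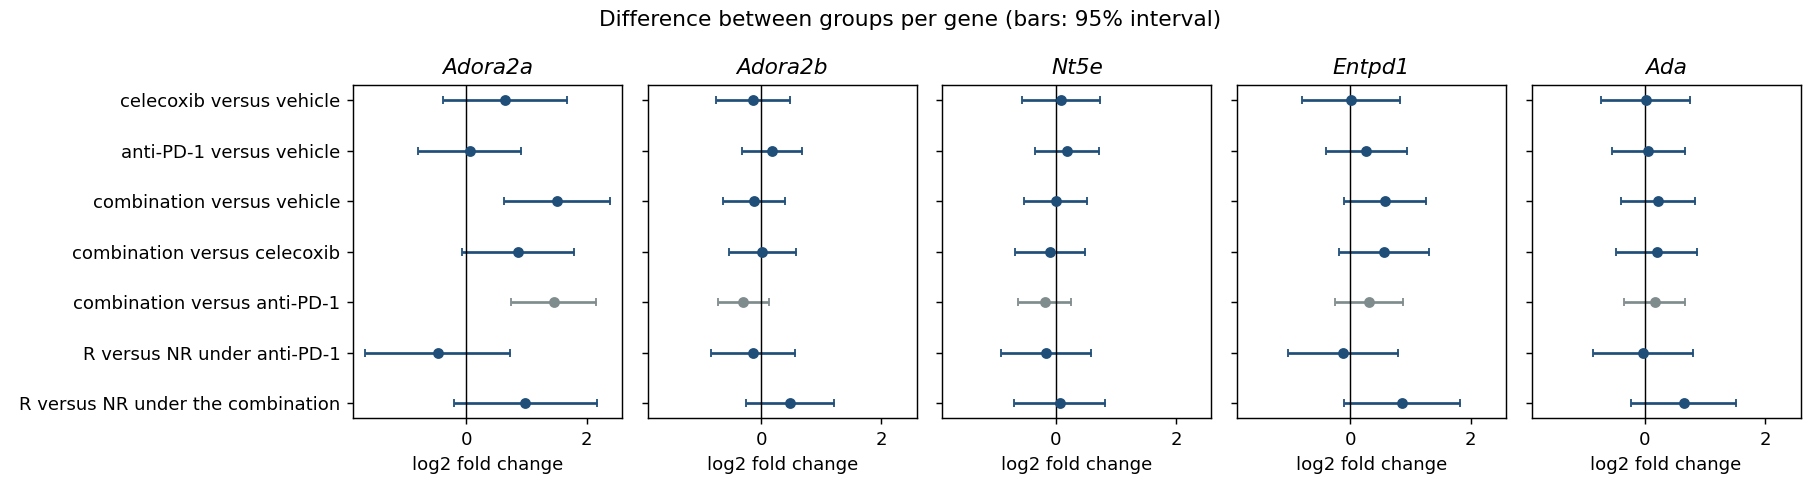
Log2 fold change of each gene in 7 comparisons, as points with 95% intervals, where the vertical line marks 0. The combination against anti-PD-1, drawn in grey, is the contrast known when the genes were chosen. The interval of Adora2a in the combination against vehicle (0.62 to 2.38) leaves out 0 but rests on the same combination tumours, and the other intervals outside the grey contrast include 0.

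None of the 5 genes was called between R and NR tumours by edgeR, DESeq2 or limma-voom, and 0 of the 5 had an unadjusted p under 0.05 in edgeR. In DESeq2 Entpd1 alone did, under the combination (unadjusted p = 0.0458, adjusted p = 0.463). Under the combination 0 of 14247 genes were called by edgeR (1298 at an unadjusted p under 0.05), 17 by DESeq2 and 0 by limma-voom. There the log2 difference of R from NR in Adora2a was 0.97 (SE 0.59, adjusted p = 0.604). The differences were 0.86 (SE 0.48, adjusted p = 0.577) for Entpd1, 0.64 (SE 0.44, adjusted p = 0.645) for Ada, 0.48 (SE 0.36) for Adora2b and 0.07 (SE 0.38) for Nt5e. Under anti-PD-1 the 5 values ran from -0.47 (SE 0.60) for Adora2a to -0.04 (SE 0.41) for Ada, each within 1 SE of 0. Again 0 genes were called by edgeR (923 at an unadjusted p under 0.05), DESeq2 or limma-voom. Over 8 other settings the value rose to 0.26 at most for Ada and to 0.37 for Entpd1. Leaving out 1 R tumour turned the sign in at least 1 of 4 fits for each gene but Adora2a. The 4 anti-PD-1 R tumours had 0.529, 0.709, 1.0 and 1.74 CPM of Adora2a, all inside the NR range of 0.382 to 2.85 CPM. The R-to-NR difference under the combination minus that under anti-PD-1 was 1.45 (SE 0.84, adjusted p = 0.999) for Adora2a and 0.98 (SE 0.66, adjusted p = 0.999) for Entpd1. Averaged over both antibody treatments, where 0.0491% of genes were called, the difference was 0.25 (SE 0.41) for Adora2a and 0.37 (SE 0.32) for Entpd1. All vehicle and celecoxib tumours are NR, so response could not be compared without the antibody.

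Entpd1 followed leukocyte genes closely across tumours. Over 49 tumours, after removing treatment means, it correlated with the mean of a T cell list at Pearson r = 0.97 (Spearman rho = 0.95, permutation adjusted p = 5.43e-05 over 125 relations), and r was 0.96 without the 2 tumours farthest from the median of the list. Within the treatments r was 0.99 for vehicle, 0.95 for celecoxib, 0.96 for anti-PD-1 and 0.99 for the combination. With macrophages, a type known to carry CD39, r was 0.89 (rho = 0.85), and with regulatory T cells, also known to carry it, 0.88 (rho = 0.86). The T cell list itself correlated at r = 0.90 with the macrophage list and at 0.91 with the regulatory T cell list, so these relations do not separate the cell types. All points share the library of both measures and its scaling, and in bulk tissue fewer cells of a type and less RNA per cell cannot be told apart. Among single genes, Entpd1 correlated at 0.89 with Cd8a, a cytotoxic T cell marker, at 0.90 with Adgre1, a macrophage marker, and at 0.49 with S100a8, a neutrophil marker. With the remaining marker genes r was 0.88 (Ifng), 0.83 (Cd68), 0.81 (Itgam), 0.76 (Gzmb), 0.75 (Cd4), 0.68 (Csf1r) and 0.60 (Foxp3, rho = 0.45). Foxp3 belongs to the regulatory T cell list and Csf1r to the macrophage list. The relation of Entpd1 was negative with the lists of colon epithelium (r = -0.47, rho = -0.32, and r = -0.45 without the 2 farthest tumours) and of proliferation (r = -0.41, rho = -0.60, and r = -0.51 without them).

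The T cell list is given beside these results because the levels of Entpd1, Ada and Adora2a varied with it. Of its 18 genes 17 were tested, and Trat1 had reads in 3 libraries only. Its mean in log2 CPM was 2.37 under vehicle (range 0.88 to 3.46), 2.31 under celecoxib (1.43 to 3.73), 1.98 under anti-PD-1 (-0.46 to 4.16) and 2.97 in the combination (0.04 to 4.94), and these ranges overlapped. It was 3.21 in R and 2.24 in NR tumours under the combination, and 1.65 in R and 2.09 in NR tumours under anti-PD-1. No T cell gene was called between R and NR tumours by edgeR, DESeq2 or limma-voom. All 17 genes had positive log2 fold changes in the combination against vehicle, with a median of 0.97 beside 0.01 over all genes, and 0 of 17 were called by edgeR, DESeq2 or limma-voom. In edgeR 4 of the 17 had an unadjusted p under 0.05, beside 15.4% of all genes. In the combination against anti-PD-1 14 of the 17 had an unadjusted p under 0.05 in edgeR, beside 17.2% of all genes, and 0 were called. Genes of the same cell type vary together, so these counts do not stand for 17 separate results. With the T cell list mean as a covariate, the R-to-NR differences under the combination became 0.03 for Adora2a, -0.05 for Entpd1 and -0.06 for Ada. The combination against anti-PD-1 became 0.65 (SE 0.31) for Adora2a, -0.48 for Entpd1 and -0.38 for Ada. Entpd1 correlated with the list mean at r = 0.97, so little of its level is left to compare in these fits.

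Ada followed the same lists less tightly. It correlated with T cells at r = 0.80 (rho = 0.78), cytotoxic lymphocytes at 0.82 (rho = 0.82) and macrophages at 0.79 (rho = 0.79), each with permutation adjusted p = 5.43e-05. Within the treatments its r with T cells was 0.90, 0.74, 0.80 and 0.81 for vehicle, celecoxib, anti-PD-1 and the combination, and the adjusted permutation p in celecoxib was 0.226. Entpd1 and Ada correlated with each other at r = 0.80 (rho = 0.76, permutation adjusted p = 0.0001 over 10 pairs). Within the treatments this r was 0.89, 0.63, 0.75 and 0.86 in the same order, and celecoxib did not pass (exact permutation p = 0.144, adjusted 0.48). By rank vehicle did not pass either (rho = 0.82, permutation adjusted p = 0.108). Without the 2 tumours farthest from the median of Ada, r was 0.66, 0.11, 0.58 and 0.81. The enzyme that opens the pathway and the one that removes its product thus tended to be high in the same tumours, less clearly under celecoxib. Both also correlated with the T cell list.

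**Figure D3:**
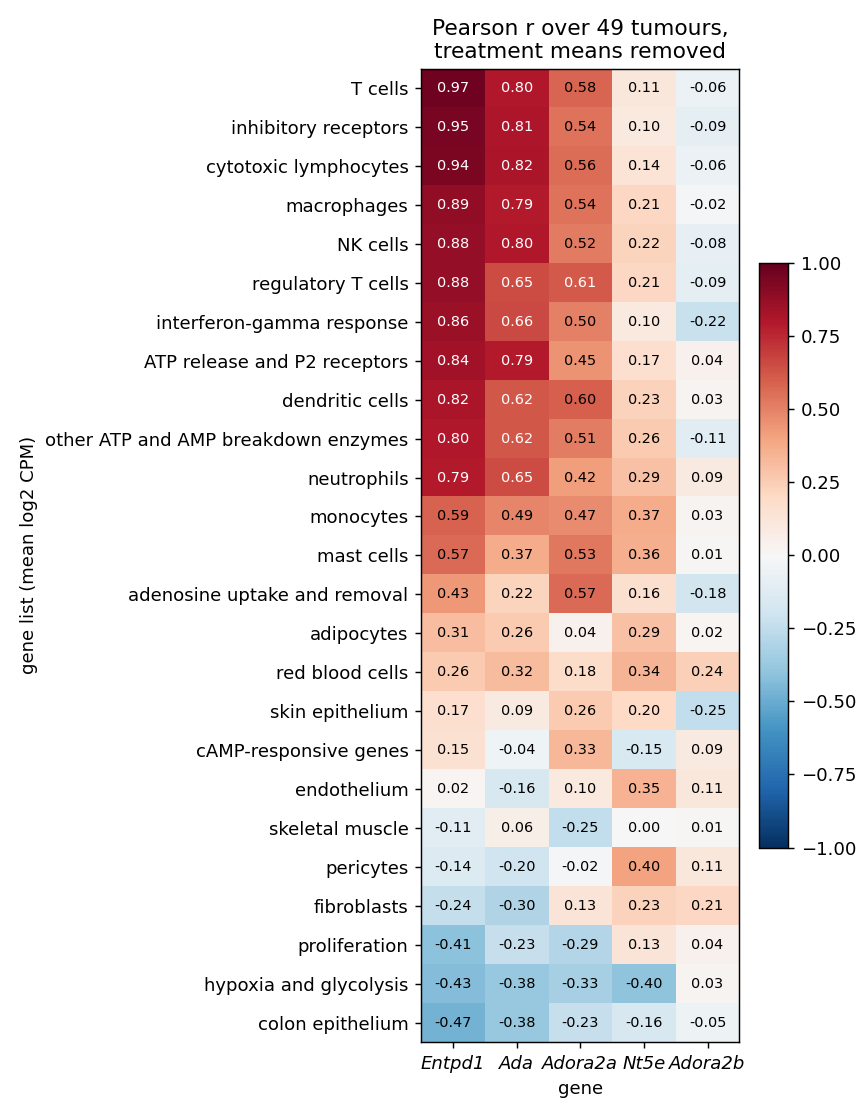
Pearson r of each gene with the mean log2 CPM of 25 gene lists over 49 tumours after removing treatment means, on a colour scale from -1 to 1. The upper rows, mostly leukocyte lists, run from 0.79 to 0.97 for Entpd1 down to neutrophils, while no value of Adora2b is beyond -0.25 or 0.24.

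Adora2a correlated with T cells at r = 0.58 (rho = 0.56, permutation adjusted p = 9.62e-05), regulatory T cells at 0.61 (rho = 0.64), dendritic cells at 0.60 (rho = 0.62) and macrophages at 0.54 (rho = 0.45). Without the 2 farthest tumours these were 0.54, 0.59, 0.58 and 0.47. Within treatments its r with T cells was 0.69 (permutation adjusted p = 0.0131) under anti-PD-1 and 0.72 (permutation adjusted p = 0.0155) in the combination, but 0.22 under vehicle and 0.17 under celecoxib, where neither passed. The difference between treatments in r was not tested. Of the 5 combination tumours with the most Adora2a, 4 were among the 5 with the highest T cell mean and the other ranked 7. Combination replicate 13 ranked 4 for T cells and 13 for Adora2a. Of single T cell genes, Cd4 correlated at 0.65 (rho = 0.62), Foxp3 at 0.56 (rho = 0.45) and Cd8a at 0.41 (rho = 0.40).

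**Figure D4:**
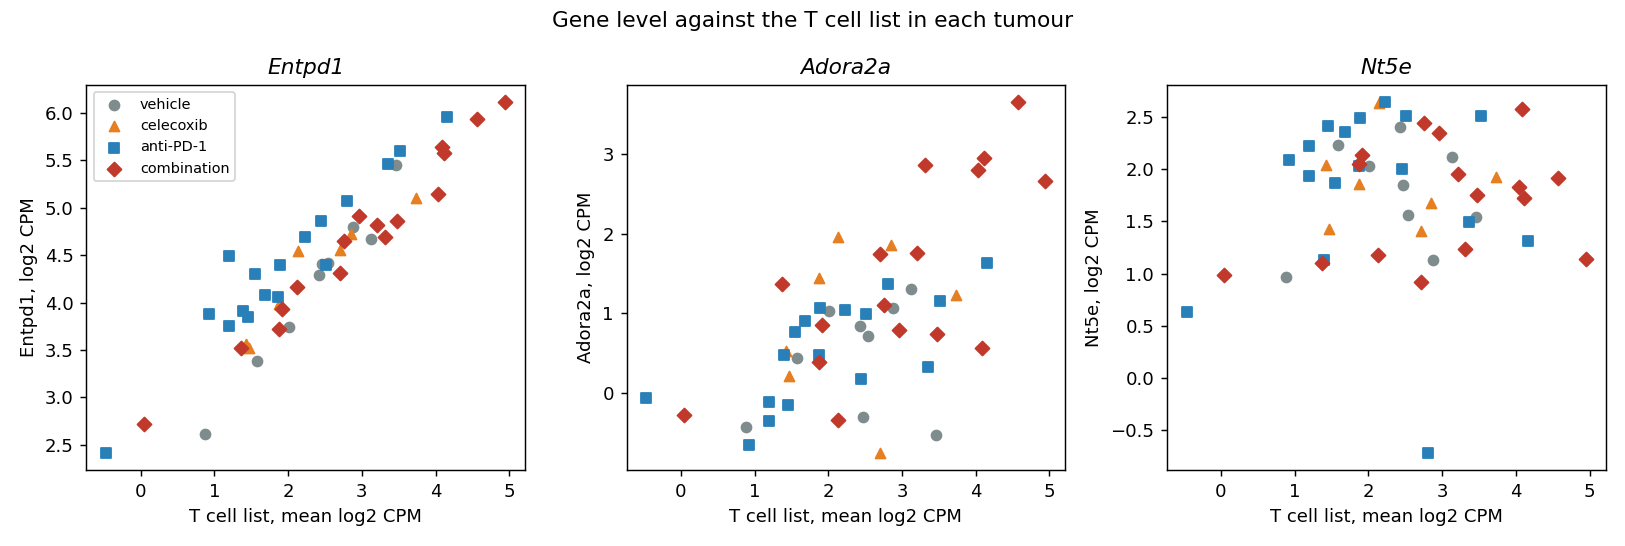
Log2 CPM of Entpd1, Adora2a and Nt5e against the mean log2 CPM of the T cell list, 1 point per tumour, coloured and shaped by treatment. Entpd1 lies along a line in every treatment (r from 0.95 to 0.99), Adora2a spreads more (r from 0.17 to 0.72), and Nt5e shows no relation (r = 0.11 after removing treatment means).

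Nt5e, whose product acts directly after CD39, did not follow Entpd1 (r = 0.13, rho = 0.09, permutation adjusted p = 0.454). It passed for 5 lists in the positive direction, among them pericytes at r = 0.40 (rho = 0.25) and endothelium at 0.35 (rho = 0.19), and for hypoxia and glycolysis at -0.40 (rho = -0.23). Without the 2 farthest tumours these fell to 0.23, 0.26 and -0.29, so they rest partly on those tumours, and no rank correlation of Nt5e with these 3 lists passed. Those 2 tumours were picked by the list mean and not by Nt5e. The weight of the anti-PD-1 tumour with 2 reads of Nt5e (0.359 CPM) was therefore not tested. The other lists that passed were monocytes (r = 0.37, rho = 0.32), mast cells (0.36, 0.29) and red blood cells (0.34, 0.23). Without the 2 farthest tumours their r was 0.24, 0.20 and 0.34, and none of them passed by rank. Of the marker genes, only S100a8 passed with Nt5e, at r = 0.37 (rho = 0.34, permutation adjusted p = 0.0187 and 0.0307). The neutrophil list did not pass (r = 0.29, permutation adjusted p = 0.0957). With T cells the r of Nt5e was 0.11 (rho = 0.08). Adora2b passed for none of the 25 lists, with r from -0.25 to 0.24, and correlated with Adora2a at -0.24 (rho = -0.25, permutation adjusted p = 0.246). In all, 53 of the 125 relations passed: 15 for Adora2a, 0 for Adora2b, 6 for Nt5e, 17 for Entpd1 and 15 for Ada.

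The genes most like each member, by r of treatment-centred log2 CPM over 49 tumours among 11298 genes, are a description with no test. For Entpd1 they were Mpeg1 (0.965), a macrophage pore-forming protein, H2-DMa (0.965), of MHC class II peptide loading, Lck (0.954), the T cell receptor kinase, Aif1 (0.953), a macrophage marker, and Arhgap15 (0.951). For Ada they were Evl (0.929), Tyrobp (0.928), an adaptor of myeloid and NK receptors, Ctsb (0.902), Man2b1 (0.899) and Gsdmd (0.898). For Adora2a they were Anxa6 (0.803), Slc29a3 (0.777), a nucleoside transporter of lysosomes, Sp100 (0.776), Itpkb (0.765) and Cln8 (0.762). The best matches were weaker for Adora2b, led by Zfp51 (0.637) and Col5a2 (0.595), a fibrillar collagen, and for Nt5e, led by Il1rap (0.61), a subunit of the interleukin-1 receptor.

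Of the remaining genes of the pathway, 0 were called in any of the 12 comparisons by edgeR or limma-voom, and DESeq2 called 1, Slc29a3, in the combination against anti-PD-1. In the combination against vehicle 6 of 43 tested had an unadjusted p under 0.05 in edgeR, which is near the 15.4% of all genes that did. The other adenosine receptors differed from vehicle in the combination by -1.09 (SE 0.34, adjusted p = 0.159) for Adora1, from a mean of 3.15 ± 1.15 CPM (SD, n = 9) to 1.44 ± 0.971 (SD, n = 16), and by 0.56 (SE 0.33, adjusted p = 0.408) for Adora3. Of 15 other enzymes that break down ATP, AMP or related nucleotides 10 were tested, with a median of 0.18 against vehicle in the combination, and Cd38, singled out after its values were seen, had the extreme value of 1.38 (SE 0.55, adjusted p = 0.224). Of 10 genes of adenosine uptake and removal 7 were tested (median 0.27), of 13 genes of ATP release and P2 receptors 10 were tested (median 0.20), and all 14 cAMP-responsive genes were tested (median 0.07). Over all genes the median of that comparison was 0.01. Adora2a correlated with the cAMP-responsive list at r = 0.33 (rho = 0.33, permutation adjusted p = 0.0516).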

How the data were processed

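The authors deposited 1 table of raw counts per gene for the 49 tumours. Per the submitters' processing notes, bcl2fastq, STAR, featureCounts and limma were used with builds mm10 and GRCm38, and which step each served is not stated here. The members and the gene lists were chosen with earlier results of these data known. Counts were fitted with edgeR 4.0.16 (R 4.3.3; TMM, filterByExpr, robust quasi-likelihood test), once with the 4 treatments (13726 genes) and once with treatment and response (14247 genes), with Benjamini-Hochberg adjustment over all genes. Named genes were the 5 members, called genes of the pathway lists, the 5 genes most like each member (mean of at least 2 CPM) and 10 marker genes. Outside that rule, Adora1, Adora3 and Cd38 were named though not called, Cd38 after its values were seen. Krt20, Krt18, Vil1, Cdx2 and Trat1 were named to describe their marker lists. Correlations used log2 CPM (prior count 2) less treatment means, with 100000 permutations, or exact enumeration under 10 tumours, in numpy 2.4.6 and pandas 2.3.3. The smallest p this allows is 1e-05. Alternatives were DESeq2 1.42.0, limma 3.58.1 (voom), RLE scaling, no filter, muscle or T cell covariates, fewer samples and leaving out each library. The fit was also run on simulated counts with the same shift in every tumour of a group. That setting differs from the tail of Adora2a, and nothing is read from it here. Adora2a had a median of 13 reads per library, Adora2b 25, Nt5e 26, Ada 67 and Entpd1 178, so counting error weighs most on Adora2a.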

Additional observations from a re-analysis of the deposited data

How the results depend on the processing

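The number of the 5 genes called in the combination against anti-PD-1 (1) was 0 with limma-voom, with no filter on low counts, with the compared groups alone and after dropping libraries that held other tissue, and 0 to 1 over the fits that left out 1 library. With the T cell covariate it was 1, but the gene called was Entpd1 (-0.48), not Adora2a. Entpd1 correlated with that covariate at r = 0.97, so this fit compares only the small part of its level left over. Nothing is read from that call. In the combination against vehicle the number of the 5 genes called rose from 0 to 1 after the drop of libraries that held other tissue. Among 25 fits that each left out 1 library it was 1 in 1 fit and otherwise 0. Over all genes the number called in that comparison was 10 in the main fit. It ran from 2 to 327 over the other settings and from 2 to 157 leaving out 1 library. In the combination against anti-PD-1 it was 69 in the main fit, 11 to 297 over the other settings and 13 to 449 leaving out 1 library. The causes were not tested. Signs turned with the T cell covariate for Entpd1 (-0.05) and Ada (-0.06) in R versus NR under the combination, for Entpd1 (-0.13) and Ada (-0.16) in the R-NR difference between treatments, for Entpd1 (-0.48) and Ada (-0.38) in the combination against anti-PD-1, and for Entpd1 (-0.56) and Ada (-0.48) in that contrast among R. After the same drop Adora2b turned to -0.37 in the combination against celecoxib and to -0.28 in R versus NR averaged over both treatments. Of 1460 values of the 5 genes under alternatives, 96 had the other sign, 86 of them within 1 SE of 0 and uncalled in both fits.

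The 53 relations that passed became 15 within vehicle, 7 within celecoxib, 31 within anti-PD-1, 35 within the combination and 33 in antibody-treated NR tumours, each with fewer tumours. Within celecoxib r turned to -0.15 for Adora2a with ATP release and P2 receptors, to -0.21, -0.14 and -0.74 for Nt5e with endothelium, pericytes and red blood cells, and to -0.02 and -0.40 for Ada with monocytes and mast cells. In antibody-treated NR tumours r turned to 0.04, 0.19 and 0.17 for hypoxia and glycolysis with Adora2a, Entpd1 and Ada, to -0.07 and -0.11 for Entpd1 with adenosine uptake and mast cells, and to -0.19 and 0.05 for Ada with mast cells and colon epithelium. In the 11 combination tumours at 3.15 CPM of Adora2a or below, an alternative added after seeing the data, r of Adora2a with neutrophils turned to -0.09. This subset is cut on Adora2a itself, which narrows its range and by that alone lowers r, so nothing is read from it. No paired analysis was possible because the replicate numbers only name tumours in accession order.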

Other observations

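In antibody-treated tumours, relations with the list of hypoxia and glycolysis genes differed in sign between the response labels. After removing treatment means, r with that list was -0.76 for Entpd1, -0.68 for Ada and -0.57 for Adora2a in the 16 R tumours, and 0.19, 0.17 and 0.04 in the 17 NR tumours. The difference was not tested. The list mean reached 8.29 log2 CPM in anti-PD-1 R and 8.10 in combination R tumours, and at most 7.04 in anti-PD-1 NR and 5.80 in combination NR tumours, so the R tumours covered a wider range. The hypoxia list was singled out from 25 after the values were seen, and other lists changed sign too. For Entpd1 r was 0.30 in R and -0.79 in NR tumours with pericytes, 0.36 and -0.64 with endothelium, and 0.85 and -0.11 with mast cells. Over all 49 tumours its r with the hypoxia list was -0.43, and -0.21 without the 2 farthest tumours. Relations with T cells had the same sign under both labels: r was 0.97 in R and 0.97 in NR tumours for Entpd1, 0.83 and 0.74 for Ada, and 0.69 and 0.67 for Adora2a.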
